A study of Mus musculus with 8 samples.

Results

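3T3-L1 cells are mouse preadipocytes, fibroblast-like cells that stop dividing when the dish is full and can then be turned into fat cells by a hormone mix. The comparison described here sets the arrays of day 0, the day of confluence, against those of day -2, when the cells were still growing. It used 4 of the 8 arrays of the series: unmodified cells (WT) and cells stably transfected with shRNA-8 against the long noncoding RNA slincRAD (sh8), each on both days, with 1 array per line and day. Both lines grew in 10% newborn calf serum. The sample labels list the induction mix of isobutylmethylxanthine, dexamethasone and insulin for all 8 arrays. By the count of days, day -2 and day 0 come before induction, so these 4 arrays are read here as not having received it. The other 4 arrays, of days +2 and +4 after induction, entered only alternatives. slincRAD itself was not analysed here, a control shRNA was carried by none of the samples, and the sources used here do not say whether sh8 is 1 clone.

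No line and day had a replicate. Each day 0 array was set against the day -2 array of its own line, so agreement between the lines is the only check on a change, and the labels do not state that each array is a culture of its own. The p-values therefore set the mean change of both lines against an error. That error comes from how much the change differed between WT and sh8, which may be partly technical, and is moderated over all genes. All 4 arrays lay on 1 slide. The 75th percentile of processed intensity was 1242 and 1172 on the day -2 arrays of WT and sh8 and 932 and 941 on the day 0 arrays, between 64.9% and 68.5% of probes passed the scanner's test of being well above background, and saturation affected 0 spots. Repeat spots of the same probe had a median SD of 0.050 to 0.064 on the log2 scale. A level here is a log2 intensity relative to the 75th percentile of its array, whose value is 0, and changes are day 0 minus day -2. A value in parentheses after a gene, or one that a gene is said to be at, is its mean log2 change over both lines unless a line or a level is named. Of 10 fibroblast and preadipocyte markers, 10 were well above background on all 4 arrays, with a summed linear level of 575 to 803 times the 75th percentile. The sums were 6.44 to 9.24 for 14 macrophage and leukocyte markers, 8.75 to 11.1 for 11 lung epithelial ones, and at most 3.11 for endothelial, epithelial, skeletal muscle and red blood cell markers. The brightest lung epithelial marker on each array was Lamp3, at a level of 2.65 to 3.35. Of those 11 markers 5 were well above background on all 4 arrays and 3 on 0. Of the 14 macrophage and leukocyte markers 8 were well above background on all 4 arrays and 3, Lyz2, Tyrobp and Laptm5, on 0. Of the leukocyte markers tested 1 rose, Fcgr1, which was well above background on 1 of the day -2 arrays.

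Contact inhibition is the arrest of normal fibroblasts in G1 once neighbouring cells touch. In G1 the pocket proteins of the retinoblastoma family hold E2F factors in check, and with the MuvB core they form the DREAM complex, which represses genes of replication and mitosis. Mitogens and cell spreading oppose this arrest through immediate early genes, D cyclins, SRF and YAP. Confluent 3T3-L1 cells re-enter the cycle for a short time after induction, before they accumulate fat.

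Cell division genes were lower at day 0 in both lines, and of the 33 gene lists examined G2 and mitosis had the lowest median change. Of 21999 genes and unnamed transcripts tested, 15057 of them named, 968 fell by limma at an adjusted p under 0.05 (4.4% of those tested) and 979 rose (4.45%) in the mean of both lines. Counts of limma calls within a list are to be read against these shares. At an unadjusted p under 0.05 were 8205 of the 21999, and such counts within a list are to be read against that. With 1 residual degree of freedom, taken from the difference between the lines, a gene can hardly pass unless both lines moved alike, so agreement between them among these 1947 is no separate finding. By size alone, 691 were at least 2-fold lower in both lines (3.14%) and 599 at least 2-fold higher (2.72%), of which 569 and 346 were named. Of the 691 and the 599, 525 and 451 were well above background on all 4 arrays by any of their probes, as were 19925 of all tested. For the others the fold rests in part on levels not well above background. The number of limma calls depended on the settings. Taking the line out of the model or lifting the filter on dim probes each left 0 calls by limma (3131 and 11566 at an unadjusted p under 0.05, against 8205). With all 8 arrays in the fit 1088 passed, of which 846 were among the 1947. Leaving any of the 4 arrays out of that fit on 8 arrays, so that the lone array of its day was assumed to vary like the rest, left 0 calls (3508 to 6073 at an unadjusted p under 0.05). With a normexp background correction of the 4 arrays 6310 passed, 2303 lower and 4007 higher. The calls by size do not rest on this estimate of error, and moved to 707 lower and 504 higher with quantile scaling and to 424 and 262 with normexp.

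**Figure D1:**
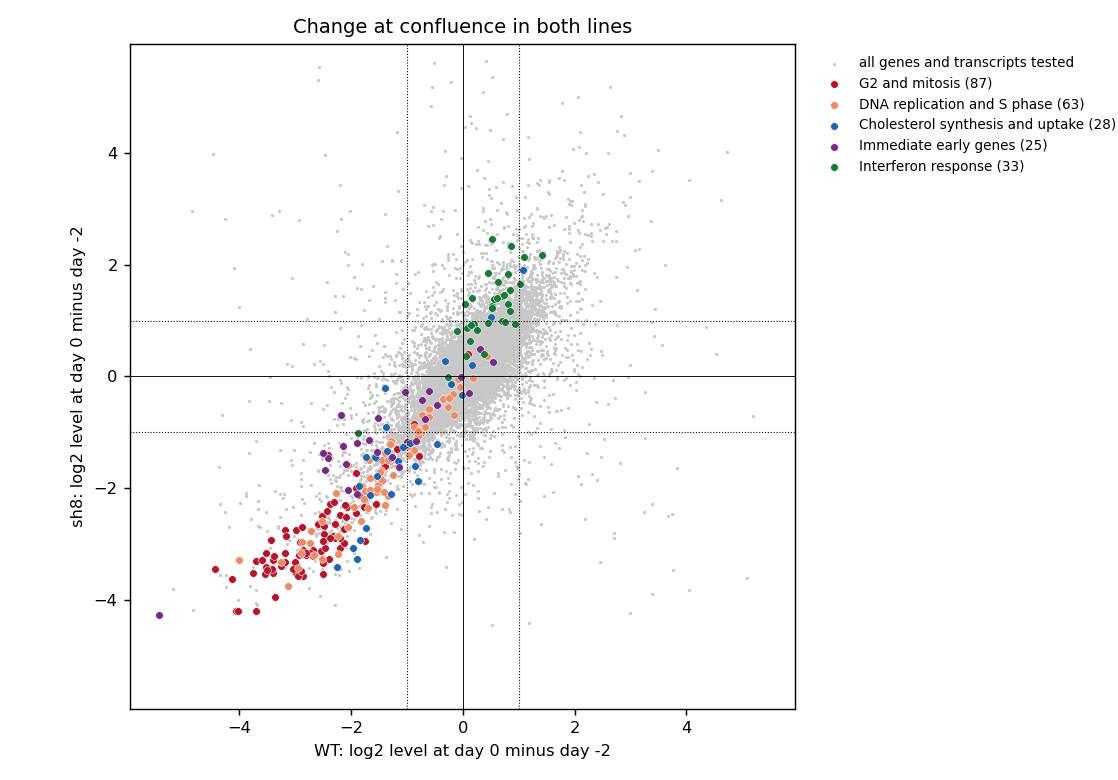
Log2 change from day -2 to day 0 in WT (x axis) and in sh8 (y axis) for the 21999 genes and transcripts tested (grey) and 5 gene lists (colours), with dotted lines at a 2-fold change. Most G2 and mitosis genes lie in the lower left corner, where both lines are at least 2-fold lower, and the interferon genes have a median of 0.53 in WT and 1.26 in sh8.

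The median change of all genes was 0.06 in WT and 0.03 in sh8. In WT alone 1047 genes were at least 2-fold lower and 1028 higher, and in sh8 alone 1163 and 1435. Of all 21999, 9574 (43.5%) lay above 0 in both lines and 7652 (34.8%) below 0 in both, the shares against which such counts for a list are to be read. Signs were opposite in 4773 genes, and in 92 of these the change was at least 2-fold each way. A gene measured by further probes offered a check within the array. Only further probes of named genes that were well above background on all 4 arrays were counted, so dimmer probes are not in these counts. Of 101 further probes for genes called lower by size, 97 had the same sign and 72 were at least 2-fold lower, with a median of -1.44. Of 65 for genes called higher, 56 had the same sign and 27 were at least 2-fold higher, with a median of 0.93.

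Of 88 genes of G2 and mitosis, 87 passed the filter, 83 fell and 0 rose by limma, and 82 were at least 2-fold lower in both lines. The median change was -2.87 (-2.59 in WT and -2.98 in sh8), against 0.05 for all genes. In a bulk sample, fewer dividing cells and less RNA of these genes per cell cannot be told apart. Plk1, the kinase that drives mitotic entry and exit, stood at 2.04 in WT and 2.30 in sh8 at day -2 and at -2.09 and -1.32 at day 0. Both day -2 arrays lay far above both day 0 arrays, and the gene fell 14.7-fold (-3.87 ± 0.17 SE, adjusted p = 0.0261 by limma). Cdc20, the activator of the anaphase-promoting complex, stood at 3.61 in WT and 3.83 in sh8 at day -2 and at 0.19 and 0.38 at day 0, with nearly the same change in each line (-3.43 ± 0.11 SE). Ube2c, the ubiquitin-conjugating enzyme that works with that complex, fell by -3.54 in WT and -3.54 in sh8. The proliferation marker Mki67 went from 2.61 and 2.64 to -0.77 and -0.58 in WT and sh8, and fell 9.83-fold (adjusted p = 0.0261).

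Every step of division was represented. Among 16 mitotic cyclins, kinases and phosphatases 15 fell, with a median of -2.80, including Ccna2 (-3.34), Ccnb1 (-3.18), Ccnb2 (-3.50) and their kinase partner Cdk1, which changed less (-1.95 ± 0.11 SE) and stayed at 1.39 and 1.17 in WT and sh8 at day 0. Of 7 genes of the Aurora kinases and the chromosomal passenger complex, which corrects chromosome attachment, 7 fell, with Aurkb at -3.18 and Birc5 at -2.96. Of 20 kinetochore and centromere genes 19 fell, with a median of -2.59. Nuf2, a subunit of the microtubule-binding Ndc80 complex, was at -3.25, although a second probe of it, well above background on 0 arrays, was at 0.37. Of 11 genes of the spindle checkpoint and anaphase 10 fell, and the checkpoint kinase Bub1 stood at 1.90 in WT and 1.85 in sh8 at day -2 and at -1.49 and -1.66 at day 0 (-3.45 ± 0.11 SE). Among 9 genes of condensin and chromosome structure 9 fell, with Top2a, the decatenating topoisomerase, at -2.72 and Smc4 at only -0.86.

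The 24 kinesin and cytokinesis genes had the lowest median of these groups, -3.09, and 23 fell. Kif23, a motor of the central spindle, went from 0.27 and 0.80 to -4.16 and -2.65 in WT and sh8 (-3.94 ± 0.29 SE), with a larger change in WT (-4.43) than in sh8 (-3.45). Prc1, which bundles the same microtubules, was at -3.46, and the microtubule depolymerase Kif2c at -3.65. Kif11, the motor that separates the spindle poles, was well above background on both day -2 arrays and on neither day 0 array, which gives a bound of at least 10.7-fold lower. Such a bound sets the bright day's mean against, per array, the higher of the dim probe's own level and the lowest level among probes well above background. Iqgap3, a scaffold of dividing cells that is in none of the lists, had a bound of at least 11.01-fold. The member above 0 in both lines was Cep55, an abscission protein, at 0.25 by its brighter probe, while a second probe, well above background on 3 arrays, was at -3.33. Ube2s was lower without passing (-1.11, adjusted p = 0.0645).

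**Figure D2:**
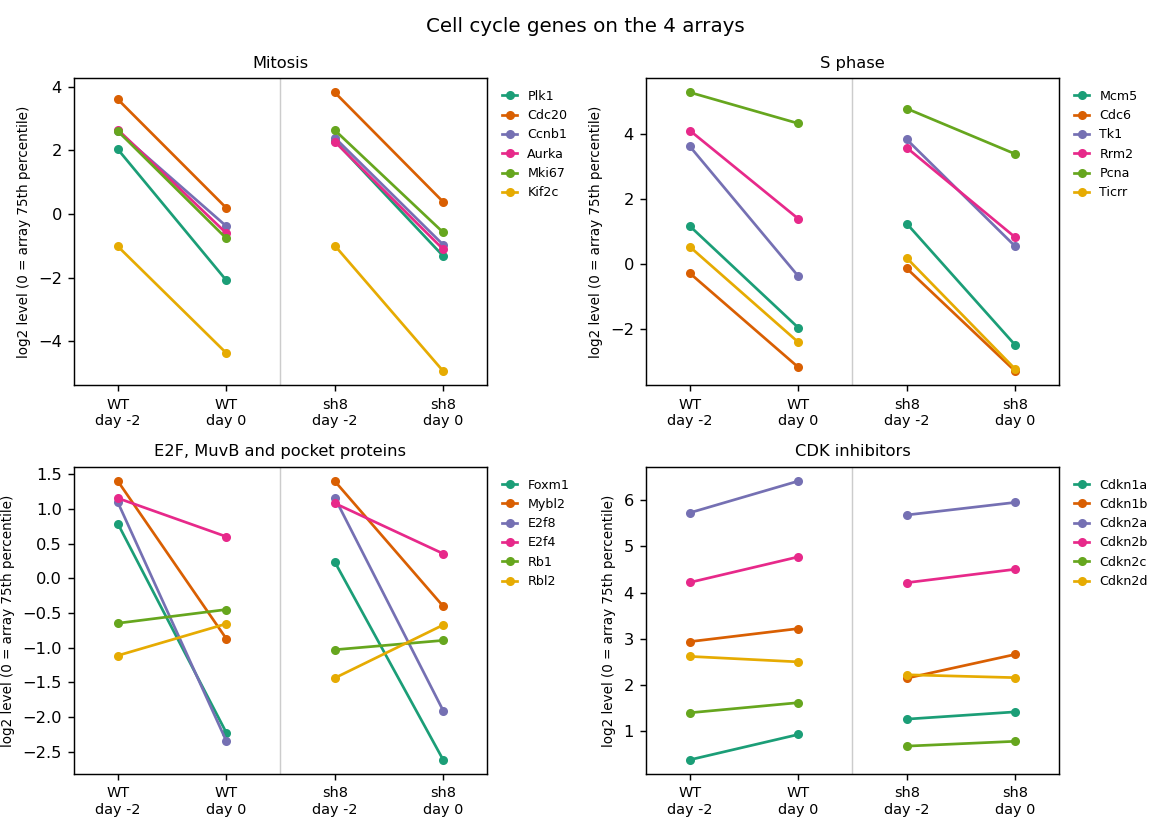
Log2 levels (y axis, 0 is the array's 75th percentile) of selected cell cycle genes on the 4 arrays (x axis), with a line joining the 2 days of each cell line. The mitosis and S phase genes slope down in both lines, whereas 5 of the 6 CDK inhibitors slope slightly up and the pocket protein genes Rb1 and Rbl2 lie higher at day 0.

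Promoters of mitotic genes often carry a cell cycle homology region (CHR, TTTGAA), which the MuvB core binds, and CCAAT boxes upstream of it. In the RefSeq promoter table (GRCm38.p6, 250 bases before to 50 after each start, both strands searched), 73 of the 87 measured G2 and mitosis genes had an entry, with 80 promoters. TTTGAA was present in 51 of these (63.8%) and in 17.9% of all 32851 promoters, and CCAAT in 56 (70.0%) and 37.4%. Promoters on 1 chromosome were left out of the choice of those printed. Of the rest, the 2 members with a CHR that fell most by the smaller of both lines' changes are shown 5' to 3'. Both motifs are in capitals on either strand.
Kif11 (chr19:37376132-37376431, + strand): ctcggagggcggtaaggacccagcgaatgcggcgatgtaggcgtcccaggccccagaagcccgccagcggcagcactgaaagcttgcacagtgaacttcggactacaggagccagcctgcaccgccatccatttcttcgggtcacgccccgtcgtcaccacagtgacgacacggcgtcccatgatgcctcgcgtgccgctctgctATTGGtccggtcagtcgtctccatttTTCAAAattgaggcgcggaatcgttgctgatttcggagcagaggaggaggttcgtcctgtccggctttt
Kif18b (chr11:102925075-102925374, - strand): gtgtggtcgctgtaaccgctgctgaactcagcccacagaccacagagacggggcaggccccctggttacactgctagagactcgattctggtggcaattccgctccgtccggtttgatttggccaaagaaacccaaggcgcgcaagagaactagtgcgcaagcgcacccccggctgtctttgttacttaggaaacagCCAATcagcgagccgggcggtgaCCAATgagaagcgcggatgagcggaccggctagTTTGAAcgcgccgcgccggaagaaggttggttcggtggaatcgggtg
In Kif11 both motifs lie on the reverse strand, the CHR (TTCAAA as printed) from base -19 to base -14 and the CCAAT box (ATTGG) from -45 to -41 relative to the start. Kif18b has 2 CCAAT boxes that begin at -53 and -30, and its CHR begins at base 4 of the transcript. Kif18b, a kinesin that shortens astral microtubules, went from -1.86 and -1.36 to -5.57 and -5.56 in WT and sh8 (-3.96 ± 0.17 SE), and was well above background on 1 of the day 0 arrays. A match of letters is a description and no proof of binding.

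Of 63 genes of DNA replication and S phase, 63 passed the filter, 47 fell, 0 rose and 41 were at least 2-fold lower in both lines, with a median of -1.60 (-1.45 in WT and -1.72 in sh8). Among 16 genes of origin recognition and licensing 10 fell. Mcm5, a subunit of the replicative helicase, stood at 1.17 in WT and 1.25 in sh8 at day -2 and at -1.97 and -2.50 at day 0 and fell 10.8-fold (-3.44 ± 0.20 SE, adjusted p = 0.0284). Mcm2 changed less (-1.74 ± 0.25 SE, adjusted p = 0.0489), with -1.34 in WT and -2.15 in sh8. The loader Cdc6 fell by 3.03 and by 2.21 for its second probe, and Orc1 by 2.89. Orc3 (-0.12) and Orc4 (0.08), subunits of the same origin complex, did not pass.

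Among 9 genes of helicase activation 6 fell, led by Ticrr (-3.18 ± 0.17 SE), whose product loads Cdc45 at origins. Gins3 was the single gene of the 63 above 0 in both lines (0.40, adjusted p = 0.0994). Of 20 polymerase, clamp and clamp loader genes 15 fell. Pole, the catalytic subunit of the leading strand polymerase, fell by 2.93 and by 1.18 for a second, dimmer probe, and the clamp Pcna went from 5.29 and 4.79 to 4.33 and 3.39 in WT and sh8 (-1.18 ± 0.16 SE, adjusted p = 0.0477). Of 8 nucleotide supply genes 7 fell. The thymidine kinase Tk1 stood at 3.62 in WT and 3.84 in sh8 at day -2 and at -0.38 and 0.54 at day 0 and showed the largest fall of the list (-3.65 ± 0.22 SE), whereas the thymidylate synthase gene Tyms did not pass (-0.31, adjusted p = 0.153). The ribonucleotide reductase subunit Rrm2 fell by 2.74. Of 10 genes of fork protection and chromatin assembly 9 fell, among them Clspn (-2.92), the histone chaperone Asf1b (-3.29) and the maintenance methyltransferase Dnmt1 (-1.60) with its partner Uhrf1 (-2.38).

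E2F sites were searched in 3 forms, TTTGGCGC, TTTCCCGC and TTTCGCGC. At least 1 form was present in 19 of 64 promoters (29.7%) of the 52 measured S phase genes with an entry, and in 1.85% (606) of all promoters. Mcm5 and Cdc6 fell most among members with a site, by the same measure and with the same chromosome left out of the choice. Their promoters are shown with the sites in capitals.
Mcm5 (chr8:75109259-75109558, + strand): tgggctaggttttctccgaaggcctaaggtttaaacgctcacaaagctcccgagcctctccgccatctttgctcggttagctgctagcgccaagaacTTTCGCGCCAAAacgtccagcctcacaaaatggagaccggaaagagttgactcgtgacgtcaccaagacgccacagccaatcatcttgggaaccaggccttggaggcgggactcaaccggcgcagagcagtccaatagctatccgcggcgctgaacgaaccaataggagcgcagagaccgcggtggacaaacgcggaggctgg
Cdc6 (chr11:98907901-98908200, + strand): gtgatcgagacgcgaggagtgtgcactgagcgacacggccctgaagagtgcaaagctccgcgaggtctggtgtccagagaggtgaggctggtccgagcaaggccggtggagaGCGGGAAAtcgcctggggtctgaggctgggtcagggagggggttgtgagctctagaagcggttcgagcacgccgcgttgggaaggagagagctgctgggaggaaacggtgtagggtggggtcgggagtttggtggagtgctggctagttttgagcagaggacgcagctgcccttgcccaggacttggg
In Mcm5 the forms TTTCGCGC and, on the reverse strand, TTTGGCGC overlap between bases -153 and -142. Cdc6 holds TTTCCCGC on the reverse strand from -138 to -131.

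Repair by recombination followed the same pattern in part. Of 26 measured genes 15 fell and 0 rose, with a median of -1.67, although with normexp the median was -0.62. The exonuclease gene Exo1 went from 1.95 and 2.21 to -0.97 and -0.97 in WT and sh8 and fell by 3.05, and the Fanconi anaemia gene Fanci by 2.73. Brip1 and Brca1 were well above background on both day -2 arrays and on neither day 0 array. Chek1, the checkpoint kinase, did not pass (0.16 in WT, -0.35 in sh8). The partner of Brca1, Bard1, did not pass by its brighter probe (-0.41), while a second probe above background on all 4 arrays was at -2.28.

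Regulators of this programme fell in part. Of 20 genes of the E2F, DREAM and Rb families 6 fell, namely the repressors E2f7 (-3.45) and E2f8 (-3.26), Tfdp1 (-0.996), Lin9 (-1.77), Mybl2 (-2.04) and Foxm1 (-2.94). A second probe of E2f7, above background on all 4 arrays, was at only -0.38. Foxm1, the activator of mitotic genes, stood at 0.79 in WT and 0.24 in sh8 at day -2 and at -2.23 and -2.62 at day 0. E2f1 (-0.60 ± 0.11 SE, adjusted p = 0.062) and E2f4, the E2F of the quiescent DREAM complex (-0.64 ± 0.12 SE, adjusted p = 0.0635), were lower in both lines without passing. The pocket protein gene Rb1 was at 0.20 in WT and 0.13 in sh8, and Rbl2, which encodes p130, at 0.46 and 0.77 (adjusted p = 0.0785). Rbl1, which encodes p107, was at -1.24 and -0.38 (adjusted p = 0.127).

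Of 11 measured genes of the G1 cyclins and kinases 3 fell. Ccnd1, the mitogen-induced D cyclin, went from 2.79 and 3.58 to 1.66 and 2.66 in WT and sh8 and fell 2.03-fold (adjusted p = 0.0438), while Ccnd2 (-0.12) and Ccnd3 (-0.0037) did not pass. Ccne2 fell by 2.46, and Ccne1 was lower in both lines without passing (-1.39 and -2.46, adjusted p = 0.0566). Cdk2 was at -0.80 (adjusted p = 0.0524), Cdk4 at -0.41 and Cdk6 at -0.32. By limma 0 of the 6 CDK inhibitors measured passed (3 at an unadjusted p under 0.05, as were 8205 of all 21999). Cdkn1b, which encodes p27, stood at 2.94 in WT and 2.15 in sh8 at day -2 and at 3.22 and 2.66 at day 0, a change of 0.40 ± 0.12 SE (adjusted p = 0.123). Cdkn1a, which encodes p21, was at 0.35 ± 0.15 SE (adjusted p = 0.197), Cdkn2a at 0.48, Cdkn2b at 0.42, Cdkn2c at 0.16 and Cdkn2d at -0.09. The first 5 lay above 0 in both lines, yet by less than 1 log2 unit, and Cdkn1c did not pass the filter.

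Of 19 p53 targets 1 rose and 1 fell, near the shares of all genes that rose (4.45%) and fell (4.4%). Trp53inp1, an autophagy and stress protein, rose by 1.04 (0.52 for its second probe), and the kinase gene Plk3 fell by 1.15. Mdm2, the ubiquitin ligase of p53, was at 0.20 (adjusted p = 0.302). Of 28 growth arrest specific and quiescence genes 4 rose and 1 fell, the latter near the share of all genes that fell (4.4%). Txnip, the thioredoxin inhibitor that is repressed in growing cells, stood at 0.10 in WT and 0.31 in sh8 at day -2 and at 1.89 and 2.50 at day 0, and the rise was 3.96-fold (adjusted p = 0.0341). Gas7 rose by 1.36, Rgs2, a brake on G protein signalling, by 1.31, and Pdgfra, a growth factor receptor of mesenchymal progenitors, by 1.098. The gene that fell, Gas2l3, encodes a cytoskeletal protein of cytokinesis (-2.43). Gas1 was higher in both lines without passing (0.73 ± 0.13 SE, adjusted p = 0.0635), and Gas6, the ligand of TAM receptors, was at 1.25 in WT and 2.47 in sh8 (adjusted p = 0.0658).

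**Figure D3:**
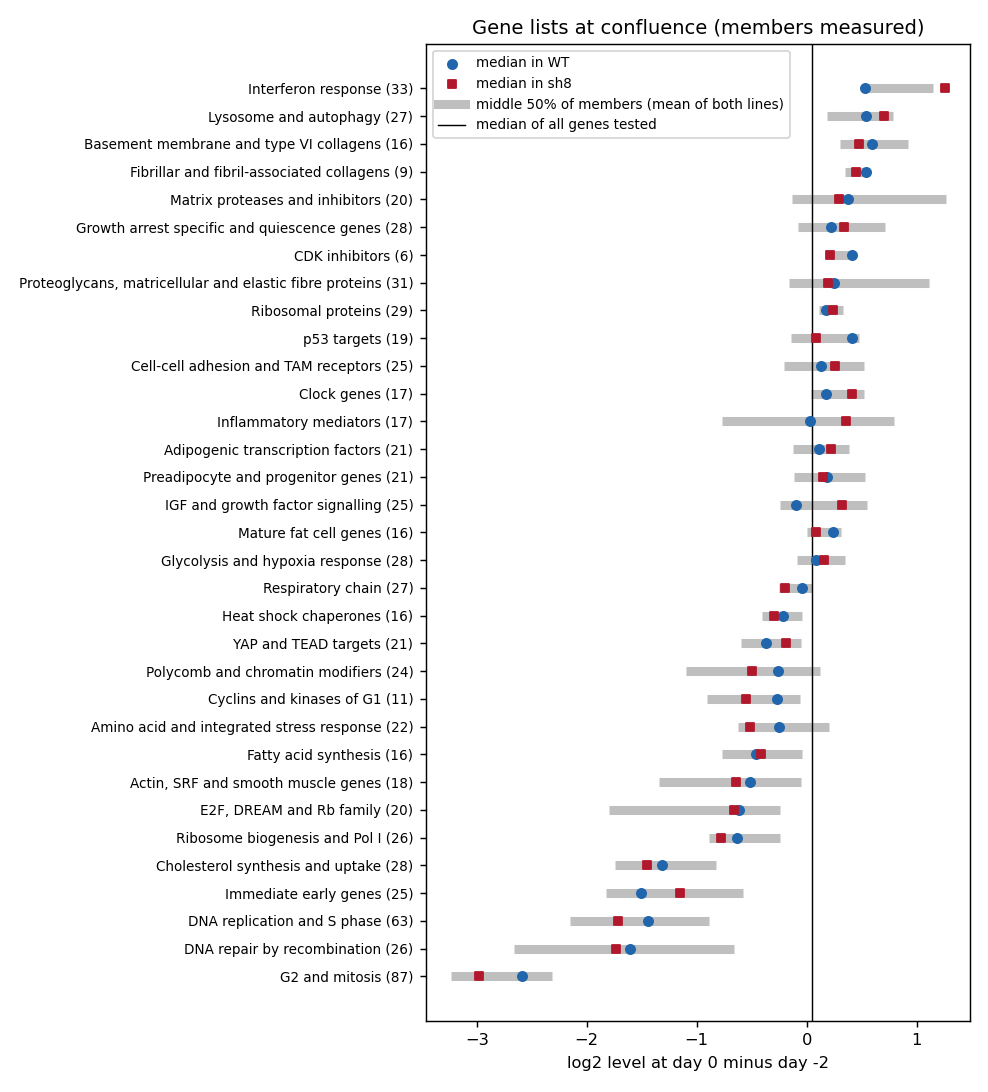
Median log2 change from day -2 to day 0 (x axis) of 33 gene lists (y axis, with the number of members measured) in WT (circles) and sh8 (squares); grey bars span the middle 50% of members by the mean of both lines. G2 and mitosis is lowest at -2.59 in WT and -2.98 in sh8, and interferon response has the widest gap between the lines, 0.53 against 1.26.

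Immediate early genes were lower at day 0. These are induced within minutes by serum and stretch without new protein. Of 25 measured members 11 fell, 0 rose and 13 were at least 2-fold lower in both lines, with a median of -1.38 (-1.51 in WT and -1.16 in sh8). Fos, a subunit of AP-1, stood at 1.91 in WT and 0.42 in sh8 at day -2 and at -3.52 and -3.85 at day 0. It fell 28.8-fold (-4.85 ± 0.34 SE, adjusted p = 0.0311), the lowest change of all genes tested. Fosl1 fell by 2.04 and Junb by 1.41, while Fosl2 (-0.48) and Jund (-0.43) did not pass. The zinc finger gene Egr1 went from 4.29 and 2.81 to 1.83 and 1.14 in WT and sh8 (-2.07 ± 0.24 SE), and Egr2 fell by 1.83. Of the ERK phosphatases, Dusp4 (-1.99) and Dusp6 (-1.54) fell and Dusp1 was lower in both lines without passing (-1.94, adjusted p = 0.059). Myc, a driver of growth, fell by 1.44. Klf10 and Ier5 were the 2 members above 0 in both lines (0.40 and 0.40), although a second probe of Ier5, above background on all 4 arrays, was at -0.43.

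The promoters of this list were searched for the cAMP response element TGACGTCA and for the CArG box that SRF binds. Of 24 promoters of 18 genes with an entry, 2 held the former (8.33%, against 1.79% of all promoters) and 6, of 3 genes, the latter (25% against 1.63%). The 2 members with a match that were lowest by the same measure, with the same chromosome left out of the choice, are shown. Egr2 has its CArG box and Dusp1 its cAMP response element in capitals.
Egr2 (chr10:67537316-67537615, + strand): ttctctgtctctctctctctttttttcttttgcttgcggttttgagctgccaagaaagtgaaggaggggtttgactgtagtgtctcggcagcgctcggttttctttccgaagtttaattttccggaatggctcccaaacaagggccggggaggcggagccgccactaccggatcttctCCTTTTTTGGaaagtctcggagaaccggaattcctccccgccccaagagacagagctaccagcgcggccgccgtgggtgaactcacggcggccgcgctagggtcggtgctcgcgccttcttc
Dusp1 (chr17:26508423-26508722, - strand): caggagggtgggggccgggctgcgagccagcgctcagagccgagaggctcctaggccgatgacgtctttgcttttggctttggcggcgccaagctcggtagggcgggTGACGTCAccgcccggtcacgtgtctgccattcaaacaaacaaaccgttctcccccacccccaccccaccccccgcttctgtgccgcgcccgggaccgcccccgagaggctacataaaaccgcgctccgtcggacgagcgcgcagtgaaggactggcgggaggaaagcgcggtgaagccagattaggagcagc
The CArG box of Egr2 spans bases -72 to -63, and the element of Dusp1 bases -143 to -136.

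Targets of YAP and of SRF, which respond to cell spreading, were lower in some cases. Ccn1, the cysteine-rich matricellular protein that is a direct YAP target, stood at 3.23 in WT and 2.83 in sh8 at day -2 and at -0.44 and 0.45 at day 0 and fell 8.12-fold (-3.02 ± 0.37 SE, adjusted p = 0.0446). Its relative Ccn2 (-3.06 in WT, -1.58 in sh8, adjusted p = 0.0634) and Ankrd1 (-2.48 and -1.23, adjusted p = 0.0676) were at least 2-fold lower in both lines without passing. Of 21 YAP and TEAD targets 2 fell, Ccn1 and the LIM protein gene Ajuba (-0.97), and the median was -0.28. In both lines 14 lay below 0 (66.7%, against 34.8% of all genes) and 3 above 0 (14.3%, against 43.5%). The mean changes ranged from -3.02 to 1.28, and 0 rose by limma. The TEAD site GGAATG was found in 8 of 16 promoters of 15 targets (50%) and in 14.7% of all promoters. Of 18 actin, SRF and smooth muscle genes 5 fell. Smooth muscle actin, Acta2, went from 4.86 and 5.05 to 3.43 and 3.39 in WT and sh8 (-1.55 ± 0.12 SE), the myosin light chain Myl9 fell by 1.75 and the focal adhesion gene Zyx by 1.005. Actg2 was called lower (-2.96 in WT and -3.52 in sh8), but was well above background on 1 of the day 0 arrays, and with normexp its change was -1.32 and did not pass. The gene for SRF itself fell by 1.35, but a second probe above background on all 4 arrays was at -0.34. Acta1, a skeletal muscle marker, fell too, by 1.52. Of the 10 skeletal muscle markers on the array, 5 were well above background on all 4 arrays, namely Acta1, Myod1, Tnni2, Tnnt3 and Des. Another 4, among them Myog, Myf5 and Ckm, were so on 0 of the 4 arrays.

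**Figure D4:**
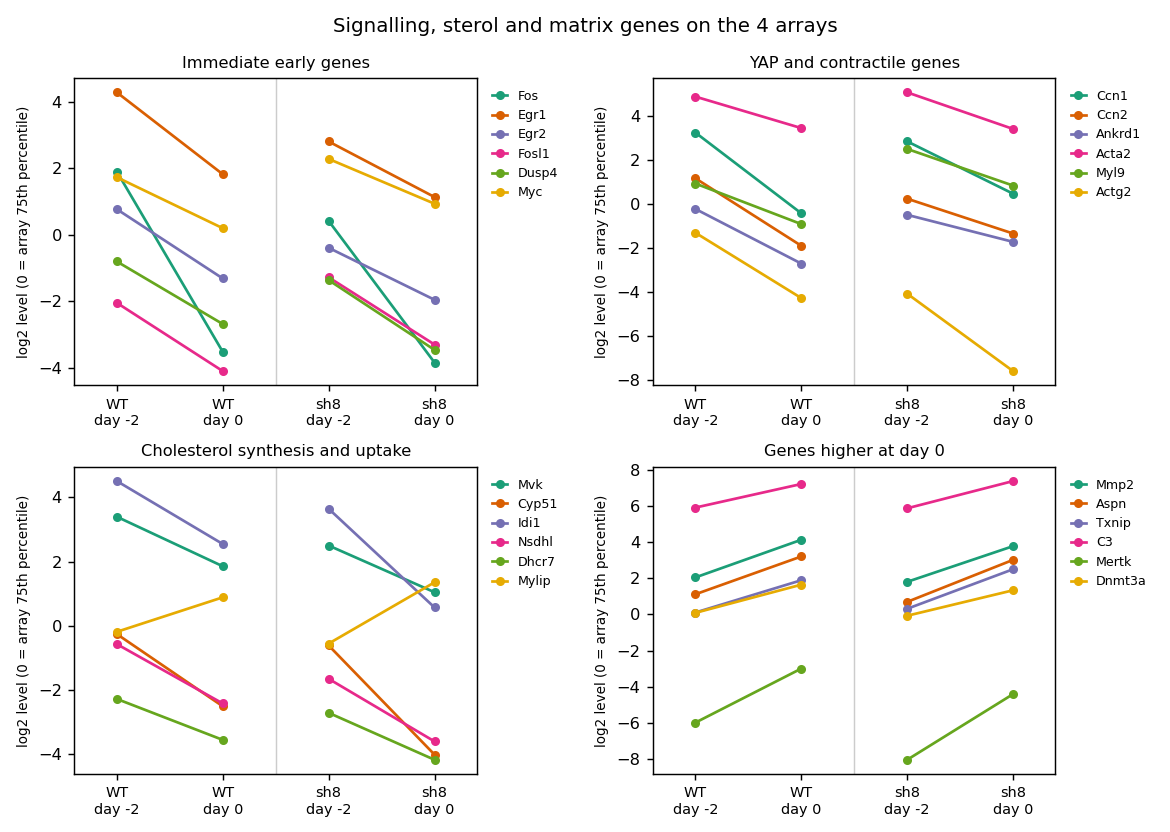
Log2 levels (y axis, 0 is the array's 75th percentile) of immediate early, YAP and contractile, and sterol genes and of genes that were higher at day 0, on the 4 arrays (x axis), with a line joining the 2 days of each cell line. Fos shows the steepest slope in both lines, and Mylip slopes up where the sterol synthesis genes slope down.

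Cholesterol synthesis and uptake genes were lower. They answer to the sterol-sensing factor SREBP2, which is released when membrane cholesterol is low. Of 28 measured genes 15 fell, 0 rose and 16 were at least 2-fold lower in both lines, with a median of -1.34 (-1.32 in WT and -1.45 in sh8). The lanosterol demethylase Cyp51 stood at -0.26 in WT and -0.62 in sh8 at day -2 and at -2.51 and -4.02 at day 0 and showed the largest fall (-2.83 ± 0.33 SE, adjusted p = 0.0438), with -2.25 in WT and -3.41 in sh8. Several steps fell almost equally in both lines, among them Mvk (-1.54 and -1.46), Nsdhl (-1.85 and -1.95) and Dhcr7 (-1.28 and -1.46). Fdft1, the squalene synthase, fell by 1.89, while a second probe, above background on 3 arrays, was at 0.04. Stard4, a sterol carrier, fell by 1.66 and by 2.53 for its second probe.

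Idi1, the isopentenyl diphosphate isomerase, had a larger change in sh8 (-3.08) than in WT (-1.96) and lay close to the threshold (adjusted p = 0.0456). Hmgcs1, which feeds the pathway, did not pass (-0.47 in WT, -1.21 in sh8, adjusted p = 0.102). Mylip, a ubiquitin ligase that is induced by oxysterols, was higher in both lines without passing (1.07 and 1.91, adjusted p = 0.059). The sterol element core CACCCCAC was found in 2 of 26 promoters of the 20 measured genes with an entry (7.69%, against 2.87% of all), and in 0 of the 12 promoters of members that were at least 2-fold lower, so none is shown. No match says only that these letters are not in this window. Among 16 fatty acid synthesis genes 3 fell, Acly (-0.997), Scd1 (-1.20) and the elongase Elovl6 (-1.41). In that list 1 rose, Acacb, the mitochondrial acetyl-CoA carboxylase (1.29), near the share of all genes that rose (4.45%). Fasn (-0.69, adjusted p = 0.074) did not pass.

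Genes that build ribosomes were lower in a narrow range. Of 26 ribosome biogenesis and Pol I genes 8 fell and 0 rose, with a median of -0.71, and 1 was at least 2-fold lower in both lines. That gene was Dkc1, the pseudouridine synthase (-1.104 and -1.17). Nop56 went from 5.26 and 5.06 to 4.26 and 3.86 in WT and sh8 (-1.101 ± 0.12 SE), and Nop2 fell by 0.96. The ribosomal protein genes themselves did not follow. By limma 0 of 29 passed (3 at an unadjusted p under 0.05), and 23 lay above 0 in both lines, with a median of 0.24 that was 0.04 with quantile scaling. Of 27 respiratory chain genes 0 passed by limma (5 at an unadjusted p under 0.05), with a median of -0.09. Of 22 genes of the amino acid and integrated stress response 3 fell, including the serine synthesis enzyme Psat1 (-1.21). In that list 1 rose, Ddit3, which encodes the stress factor CHOP (1.24), near the share of all genes that rose (4.45%). The heat shock list had a median of -0.25. Of its 16 genes 1 fell, the chaperone gene Hspa4l (-0.91), near the share of all genes that fell (4.4%).

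Chromatin genes followed the cell cycle in part. Of 24 measured 7 fell and 2 rose. Ezh2, the methyltransferase of Polycomb complex PRC2, stood at 1.84 in WT and 1.31 in sh8 at day -2 and at 0.66 and -0.20 at day 0 (-1.34 ± 0.14 SE, adjusted p = 0.0395), whereas its relative Ezh1 was higher in both lines without passing (0.60, adjusted p = 0.062). The lamin gene Lmnb1 fell by 2.37 and Hmgb2 by 1.79. The de novo methyltransferase Dnmt3a rose, from 0.08 and -0.08 to 1.64 and 1.33 in WT and sh8 (1.48 ± 0.11 SE, adjusted p = 0.0341), the opposite direction to Dnmt1. Suv39h1 fell by 1.06.

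Collagen and proteoglycan genes tended to lie higher at day 0, and few passed, whereas matricellular and elastic fibre genes went both ways. All 9 measured fibrillar collagen genes lay above 0 in both lines, with a median of 0.46 (Col1a1 was at -0.03 with quantile scaling), and 0 passed by limma although 7 had an unadjusted p under 0.05 (Col1a1 0.26, Col1a2 0.50, Col3a1 0.72, the last at adjusted p = 0.0594). Of 16 basement membrane and type VI collagen genes 2 rose. They were Col6a2, from 0.56 and 1.23 to 1.71 and 2.29 in WT and sh8 (1.104 ± 0.11 SE), and Col6a1 (0.84, adjusted p = 0.0466). Among 31 proteoglycan, matricellular and elastic fibre genes 4 rose and 1 fell, the latter near the share of all genes that fell (4.4%). The collagen-binding proteoglycans Aspn (2.21 ± 0.12 SE), Fmod (1.35) and Dcn (1.52) rose, and so did Postn, a matricellular protein, from 4.20 and 0.57 to 6.31 and 4.00 (2.77 ± 0.38 SE, adjusted p = 0.0474). The gene that fell was Spp1 (-0.79), a secreted phosphoprotein. Lum, of the same proteoglycan family as Dcn, was higher at day 0 in both lines without passing (adjusted p = 0.0999), and was well above background on 1 of the day -2 arrays, so its change is not given. Of the 7 measured proteoglycan genes 7 lay above 0 in both lines, but of 8 matricellular genes only 3 did (median -0.04 in sh8). Of 16 elastic fibre and crosslinking genes 8 lay above 0 in both lines, with a median of 0.08 against 0.05 for all genes, and 0 passed by limma (4 at an unadjusted p under 0.05).

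Among 20 matrix proteases and inhibitors 5 rose and 3 fell. Mmp2, a gelatinase, stood at 2.04 in WT and 1.80 in sh8 at day -2 and at 4.12 and 3.77 at day 0 and rose 4.08-fold (2.03 ± 0.11 SE, adjusted p = 0.0284). Its membrane-bound activator Mmp14 rose by 1.56, Mmp13 by 2.63, Mmp11 by 1.16 and the aggrecanase gene Adamts15 by 2.57. Timp1, an inhibitor of these proteases (-0.78), and Mmp10 (-0.79) were among the genes that fell.

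Among 25 cell adhesion and TAM receptor genes 2 rose and 1 fell, the latter near the share of all genes that fell (4.4%). Mertk, a TAM receptor that binds Gas6 and protein S, stood at -5.99 in WT and -8.05 in sh8 at day -2 and at -3.001 and -4.41 at day 0 (3.31 ± 0.21 SE, adjusted p = 0.0288). It was well above background on only 1 of the day -2 arrays, so the size of its change and the SE are uncertain. Pros1, which encodes protein S, rose by 1.008, whereas the receptor genes Axl (-0.32) and Tyro3 (-0.51) did not pass. The adherens junction genes Cdh2 (0.22), Cdh11 (0.30) and Ctnnb1 (0.54) did not pass. The gene that fell was the protocadherin Pcdh7 (-1.04, and 0.26 for its second probe). Of 25 IGF and growth factor genes 2 rose and 2 fell. The insulin receptor Insr went from -1.56 and -1.92 to -0.44 and -0.36 in WT and sh8 (1.34 ± 0.16 SE), with 0.67 and 0.57 for its other probes, and Igfbp4 rose by 1.33. The EGF receptor ligands Ereg (-1.40) and Hbegf (-1.03) fell.

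Lysosomal genes were higher in a narrow range. Of 27 measured lysosome and autophagy genes 5 rose and 0 fell, 22 lay above 0 in both lines, and the median was 0.57 (0.54 in WT and 0.71 in sh8). Ctsk, a collagen-degrading cathepsin, went from 3.73 and 2.43 to 4.83 and 3.79 in WT and sh8 (1.23 ± 0.13 SE, adjusted p = 0.04). The others were Hexa (1.505, adjusted p = 0.0456), Ctsz (0.81), Psap, the saposin precursor (0.89), and the autophagy gene Gabarapl1 (0.80). The membrane protein gene Lamp2 did not pass (0.81, adjusted p = 0.0529). The gene of the regulator Tfeb was at 0.15 (adjusted p = 0.396). In glycolysis 0 of 17 genes passed by limma (4 at an unadjusted p under 0.05), with a median of 0.02. Of 11 hypoxia-responsive genes 3 rose, Ankrd37 (2.37), P4ha1, a collagen prolyl hydroxylase (1.59), and Ndrg1, which was above background on no day -2 array and so at least 4.91-fold higher. Hif1a (-0.10) and Vegfa (0.53) did not pass. Of 17 clock genes 1 rose, Dbp (1.06), near the share of all genes that rose (4.45%).

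Interferon response genes were higher at day 0, by more in sh8 than in WT. Of 33 measured, 30 (90.9%, against 43.5% of all genes) lay above 0 in both lines and the median was 0.89, with 0.53 in WT and 1.26 in sh8, but only 4 rose by limma. Among those 4 were B2m, the light chain of MHC class I (0.94 in WT and 0.94 in sh8, adjusted p = 0.0426), and Psmb9 and Tap1, which prepare and carry peptides for it (1.009 and 0.86). With quantile scaling B2m was at 0.70 and did not pass. Others, such as Ifit3 and Rsad2, differed more between the days in sh8 than in WT and did not pass. Ifit3 stood at 4.82 in WT and 2.68 in sh8 at day -2 and at 5.69 and 5.02 at day 0 (adjusted p = 0.0957), and Rsad2 at 0.81 in WT and -1.011 in sh8 at day -2 and at 1.33 and 1.45 at day 0 (adjusted p = 0.156). In both genes sh8 was below WT at day -2, and the gap at day 0 was smaller. Oasl1 was the member at least 2-fold lower in both lines (-1.87 and -1.008, adjusted p = 0.0633). With 1 array per line and day, a difference between the lines has no test.

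**Figure D5:**
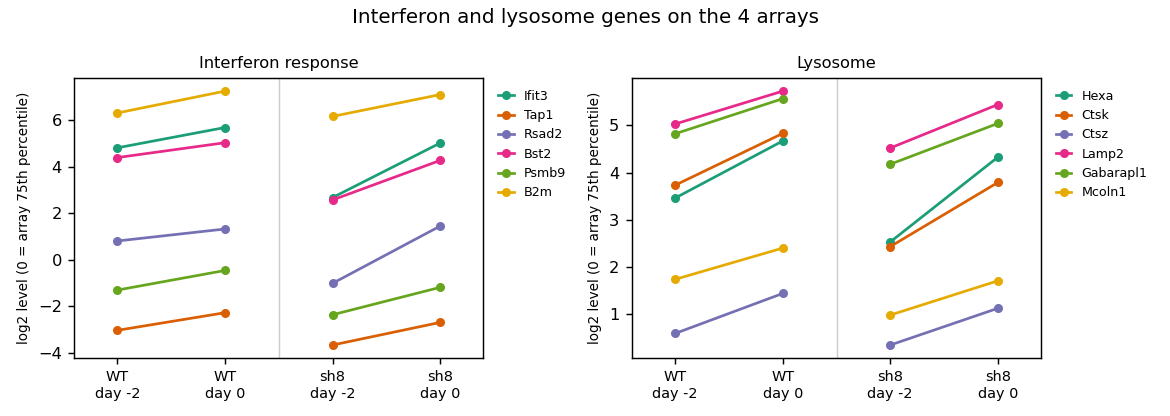
Log2 levels (y axis, 0 is the array's 75th percentile) of interferon response and lysosome genes on the 4 arrays (x axis), with a line joining the 2 days of each cell line. Ifit3, Rsad2 and Bst2 start lower in sh8 than in WT at day -2 and slope up more steeply there, whereas B2m has the same slope in both lines.

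Inflammatory mediators went both ways. Of 17 measured 4 fell and 2 rose, and the median of 0.19 was -0.02 with quantile scaling. Il1rl1, the IL-33 receptor, stood at 3.06 in WT and 4.37 in sh8 at day -2 and at -1.004 and 1.11 at day 0 and fell 12.7-fold (-3.67 ± 0.24 SE, adjusted p = 0.0302), with -2.88 for a second probe. Ptgs2, the inducible cyclooxygenase, fell by 2.77, and the cytokine gene Il6 by 1.26. Complement C3 rose by 1.41 (2.07 for its second probe), and Vcam1 rose by 0.996.

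The main regulators of fat cell formation were not called. Among 21 adipogenic transcription factors 4 fell and 1 rose, the latter near the share of all genes that rose (4.45%). Pparg, the master nuclear receptor of adipogenesis, stood at 0.57 in WT and -0.58 in sh8 at day -2 and at 0.57 and -0.84 at day 0 (-0.13 ± 0.13 SE, adjusted p = 0.511). Cebpa was at -0.09, Cebpb at 0.21 and Cebpd at 0.19, with none passing. The genes that fell were Klf5 (-2.33 ± 0.17 SE), Egr2, and the helix-loop-helix inhibitors Id2 (-1.33) and Id4 (-1.40). The one that rose was Zfp423, a preadipocyte determinant (1.43), with 0.79 and 0.44 for its other probes. Of 16 mature fat cell genes 1 rose, Agt, the angiotensin precursor (1.93 ± 0.15 SE), near the share of all genes that rose (4.45%). Fabp4 did not pass (-0.51, adjusted p = 0.0939). Among 21 preadipocyte genes 4 rose and 2 fell. Pdgfra, Dkk3 (1.25), Ddit3 and the Wnt modulator Sfrp2 (0.83) rose, while Cd34 (-0.89) and Runx2 (-0.86) fell, the latter by less for a second probe above background on 2 arrays (-0.22). Dlk1, the preadipocyte surface protein, was at 0.13 (adjusted p = 0.477).

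The 12 most negative changes by the smaller of both lines, among genes above background on all 4 arrays, were those of Fos and 11 genes of division. Pimreg (-3.78 ± 0.11 SE) and Fam83d, a spindle protein (-3.89 ± 0.15 SE), were in none of the lists, while Depdc1b (-3.63) and Aspm (-3.48), which organises spindle poles, were in that of G2 and mitosis, as were the others already named. Genes with a bound on the lower side included Gna14, a G protein subunit, at least 8.07-fold, and Lexm, at least 5.63-fold, whose second probe was well above background on 0 arrays and at 0.56.

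The 12 most positive changes came from diverse families. Lpcat2, a lysophospholipid acyltransferase, stood at -3.01 in WT and -2.99 in sh8 at day -2 and at 0.15 and 0.49 at day 0 and rose 10-fold (3.33 ± 0.14 SE, adjusted p = 0.0261). Entpd2, an ectonucleotidase, rose by 2.67, Capns2, a calpain subunit, by 3.10, and Bmf, a BH3-only death protein, by 2.39. Ppp1r3c, which targets phosphatase to glycogen, rose by 2.95 (adjusted p = 0.0404), and 5031434O11Rik by 2.62. Further probes of some of the others gave smaller values. The homeobox gene Barx2 was at 2.61, against -0.04 for a second probe above background on all 4 arrays. Nhsl2 was at 2.47, and a second probe above background on all 4 arrays was higher in both lines by less (0.71). Tspan18 was at 2.55, and its second probe was above background on only 1 array. Synm, an intermediate filament gene, was at 2.37 and at 1.93 for a second probe, above background on 3 arrays. For 2 further Synm probes above background on all 4 arrays (0.85 and 1.24) the change was seen in WT and not in sh8. Apod, a lipocalin, was higher in both lines (2.64 in WT and 5.18 in sh8) without passing (adjusted p = 0.0633), and its second probe, above background on 2 arrays, was at -1.16 in WT and 1.26 in sh8. The largest bounds on the higher side were those of Mymx, a muscle fusion peptide (at least 5.14-fold), Dbx1 (at least 5-fold) and Sbk3 (at least 4.92-fold).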

How the data were processed

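RNA of WT and sh8 cells was hybridised to Agilent one-colour arrays, 1 array per line and day. The series' design text names another array maker, but the deposited scanner files are Agilent's. Per the file headers, the processed intensity of each spot is the background-subtracted signal written by Agilent Feature Extraction 11.0.1.1, the version the submitters' processing notes also give. The value table the authors deposited holds log2 values with the same quantiles in every array (median 6.38), and it served as an alternative. The genome build of the authors' annotation was not used here.

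Control spots and outlier flags were left out, which removed 46 probes. Repeated spots were averaged, log2 processed intensity minus each array's 75th percentile was taken, and the brightest probe stood for each gene; 27234 probes were named through their RefSeq accessions and 12195 were not. Genes that 2 or more of the 4 arrays measured well above background were tested with limma 3.58.1 (R 4.3.3, data.table, version 1.17.8) on day with line as a term, with Benjamini-Hochberg adjustment over all of them and a threshold of 0.05. The number of arrays limits the precision. Alternatives were quantile scaling, normexp (offset 50), the authors' table, other filters, the mean of probes, all 8 arrays, no line term, and each of the 4 arrays left out of the fit on 8. The normexp alternative used median spot signals, since the scanner files used here hold no mean signal.

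The fit was tested on simulated data. How many of the changes put in were recovered depended on how gene variances were drawn. The way tried first recovered none, and other ways were added after that; wherever calls were made, false calls were more frequent than the threshold allows. The limma calls are therefore reported beside the rule of size, a change of at least 2-fold in both lines.

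Gene lists and the comparison were chosen with earlier results of these data known. Named genes were the 12 most negative and 12 most positive changes by the smaller of both lines' values, the 4 largest bounds each way, up to 6 members of each list, a fixed set of cell cycle and fat cell genes, and the 5 genes each way with opposite signs in the lines. Further list members, and Acta1 and Fcgr1, were named after their values were seen. Promoters came from RefSeq (GRCm38.p6), matched by symbol. Some items of these lists are not reported here, although the counts over lists include them.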

Additional observations from a re-analysis of the deposited data

Results flagged for a closer look

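Some genes moved in opposite directions in the 2 lines. With 1 array per line and day these differences were not tested. Each value is the sh8 change minus the WT change on the log2 scale, for the 5 genes each way with the largest opposite changes among those above background on all 4 arrays. Lower in WT and higher in sh8 were 4930579K19Rik (4.05), Foxe3 (2.89), Pxt1 (2.88), Tff3 (2.28) and Adm (1.75), the last encoding the vasodilator peptide adrenomedullin. Higher in WT and lower in sh8 were Plppr3 (-2.90), Sprr2e (-3.02), Gm5414 (-2.60), Lrrc4b (-2.25) and 1700125H20Rik (-2.55). Second probes of 2 of these, above background on all 4 arrays, were higher in both lines, that of 1700125H20Rik by 1.16 in WT and 0.49 in sh8 and that of Lrrc4b by 1.58 and 0.92, so the opposite directions were not seen with them. The list of IGF and growth factor genes had a median of -0.10 in WT and 0.32 in sh8, a difference of 0.42.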

How the results depend on the processing

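The number of genes past the limma threshold, 1947, moved to 6310 with normexp, 5124 (of 19915) with the filter on all 4 arrays and 1088 with 8 arrays in the fit. It was 0 with no filter, with no line term, with the filter and fit both on 8 arrays (added after seeing the data; 6712 at an unadjusted p under 0.05), and on leaving any of the 4 arrays out of the fit on 8, where the range was 0 to 0. The cause was not tested. Counts by size were 424 lower and 262 higher with normexp. With normexp the median was -2.16 for G2 and mitosis, -1.11 for cholesterol genes and -1.12 for immediate early genes; the cholesterol median was -1.45 in sh8 alone. The sign turned for the IGF list in WT alone (-0.10) and the inflammatory list with quantile scaling (-0.024) and the authors' table (-0.028). Under the same 2 settings it turned for Col1a1 (-0.029 and -0.031), Dlk1 (-0.0295 and -0.031), Foxe3 (-0.038 and -0.041), Mdm2 (-0.12 and -0.11), Plppr3 (-0.073 and -0.075) and Tff3 (-0.061 and -0.062), and with the authors' table for Cebpb (-0.0037). With normexp it turned for 1700125H20Rik (0.0023), 4930579K19Rik (0.027), Adm (-0.0004296), Cebpa (0.10) and Gm5414 (0.10). With the mean of probes it turned for 1700125H20Rik (0.25), Ccnd3 (0.052), Cep55 (-1.54) and Ier5 (-0.014), and with the filter on all 4 arrays for 1700125H20Rik (0.83). Genes above background on neither array of a day have a bound or no fold.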
